A study of Mus musculus with 15 samples.

Results

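Sonic hedgehog (Shh) and Indian hedgehog (Ihh) encode secreted ligands of the hedgehog pathway, and the peaks of 4 Polycomb subunits at both genes were described in mouse cells. The members were the peaks that overlapped, by at least 1 bp, a window of 60 kb for Shh on chromosome 5 (28.76 to 28.82 Mb) or of 40 kb for Ihh on chromosome 1 (74.98 to 75.02 Mb), in coordinates of the mm9 build. The windows held 15 of the 30692 peaks in 5 deposited lists, 10 at Shh and 5 at Ihh. The windows were taken as given, because the lists name no gene and no mm9 annotation was used here.

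The lists came from chromatin immunoprecipitation followed by sequencing (ChIP-seq), with 1 sample per list. In early cardiac mesoderm precursors (MES), Cbx2, Ring1b, RYBP and Mel18 were mapped. Mel18 was also mapped in undifferentiated embryonic stem cells (ESCs), which were of the E14Tg2A line and were grown in 2i medium with LIF. MES were derived in culture from that same line with BMP4, typically at 0.1 to 0.3 ng/ml, and per the labels their yield depended on the dose and the batch of BMP4. No gene was deleted or depleted in these 5 samples, and each immunoprecipitation used 5 ug of antibody. The Mel18 antibody had the same lot in both cell states, and the Ring1b antibody was home-made. Of the 15 samples in the series, the IgG ChIP-seq sample and 9 RNA-seq samples were not analysed here, so these data hold no expression value for either ligand.

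Hedgehog ligands bind the receptor Ptch1, which frees Smo and leads to activation of the Gli transcription factors. Shh patterns the neural tube and limb bud. Ihh is known for its roles in endochondral bone growth and in the visceral endoderm of the early embryo. Polycomb repressive complex 1 (PRC1) keeps many developmental genes silent, and its core pairs the ubiquitin ligase Ring1b with a PCGF protein such as Mel18 (Pcgf2). Cbx2 belongs to canonical PRC1 and binds methylated histone H3 through its chromodomain, whereas RYBP belongs mainly to variant PRC1. PRC1 in stem cells is found above all at CpG islands.

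Because PRC1 goes with CpG-rich promoters, the 250 bases before the start of Ihh are shown, with each CG dinucleotide in capitals. The sequence is from RefSeq (GRCm38.p6 build, minus strand, chr1:74951673-74951922), and 1 of the 2 ligand genes matched the promoter table used.
Ihh: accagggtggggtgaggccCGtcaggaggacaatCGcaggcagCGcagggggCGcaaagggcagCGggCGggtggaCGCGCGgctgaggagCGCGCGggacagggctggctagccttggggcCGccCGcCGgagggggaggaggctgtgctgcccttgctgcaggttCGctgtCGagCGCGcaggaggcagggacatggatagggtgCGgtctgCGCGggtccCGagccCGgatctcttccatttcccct
This stretch held 24 CG dinucleotides, a motif that reads the same on both strands, and 72.0% of its bases were G or C. Of 32851 start sites in that table, 12.0% had at least as many CG dinucleotides in a stretch of the same length, and the median was 6. Its place within the mm9 peaks was not determined, since the builds differ.

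All 5 lists had peaks at both ligand genes, in 1 continuous bound region each. Peaks of all lists that overlapped were joined into merged regions, of which there were 12154. The Shh region spanned 15009 bp (chr5:28781875-28796883) and the Ihh region 7097 bp (chr1:74993937-75001033). Peaks of all 5 lists were found in 2 of 2 ligand regions and in 15.7% of all merged regions (1911 of 12154). Both regions were long for their kind, since the median length of the 1911 regions was 3871 bp. Shh ranked 119 and Ihh 361 by length among them.

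**Figure D1:**
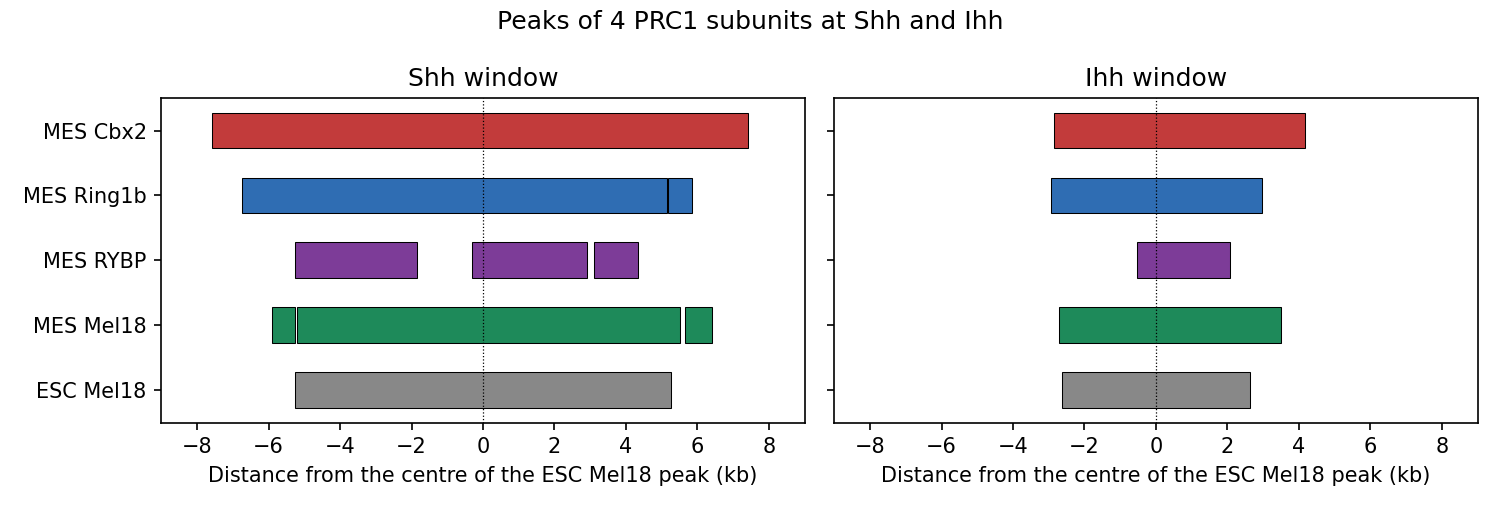
Each bar is 1 deposited peak at Shh (left) or Ihh (right), drawn by its distance in kb from the centre of the ESC Mel18 peak, with 1 row per list. The Cbx2 peak at Shh spans 15009 bp and takes in every other Shh peak, and RYBP has 3 separate peaks at Shh and 1 at Ihh.

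The first question was whether Mel18 at the ligand genes differed between mesoderm precursors and stem cells. At Shh, Mel18 had 3 peaks in MES, with widths of 658, 10725 and 746 bp, and 1 peak in ESCs, with a width of 10518 bp. The wide MES peak (chr5:28784266-28794990) and the ESC peak (chr5:28784213-28794730) lay on almost the same bases. The narrow MES peaks flanked the wide one, at gaps of 44 and 144 bp.

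At Ihh, Mel18 had 1 peak in each state, with a width of 6210 bp in MES (chr1:74994162-75000371) and 5282 bp in ESCs (chr1:74994229-74999510). The ESC interval was nested in the MES interval. The MES peak reached 67 bp further on the low-coordinate side and 861 bp further on the high-coordinate side. At Shh, the outermost MES Mel18 edges lay 649 bp (low side) and 1150 bp (high side) beyond those of ESCs.

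Mel18 peaks covered 12129 bp of the Shh window in MES and 10518 bp in ESCs, a ratio of 1.15. At Ihh they covered 6210 bp in MES and 5282 bp in ESCs, a ratio of 1.18. Both ratios were below the median of 1.24 over the 2540 merged regions in which both states had Mel18 peaks, with quartiles of 0.999 and 1.61. Neither ligand passed a fold of 1.5, set as the call for a longer or shorter cover. Mel18 cover was longer in MES in 2 of 2 ligand regions and in 78.7% of the 1911 regions with all 5 lists. Over the 2540 regions, 30.2% were called longer in MES and 5.87% shorter. The extra MES cover at Shh came mostly from the narrow flanking peaks. When the lower-scoring 50% of each list was left out these peaks were lost, and the ratio at Shh was 1.02.

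Of the ESC Mel18 bases, MES Mel18 peaks covered 99.6% at Shh and 100% at Ihh, against 67.6% over all ESC Mel18 peaks and 87.5% in the highest-scoring 25% of that list. In the other direction, ESC Mel18 peaks covered 86.4% of the MES Mel18 bases at Shh and 85.1% at Ihh, against 60.9% over all MES Mel18 peaks and 69.2% in the highest-scoring 25%. Here and below, such shares over a list also count peaks at sites where the other list had none. Both ligand regions held all 5 lists, and shares limited to such regions were not computed. At both ligand genes the stem-cell Mel18 interval thus lay almost wholly under mesoderm peaks. With 1 sample per list no test of these differences was possible, and read depth, which also moves the number and width of peaks, was unknown.

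**Figure D2:**
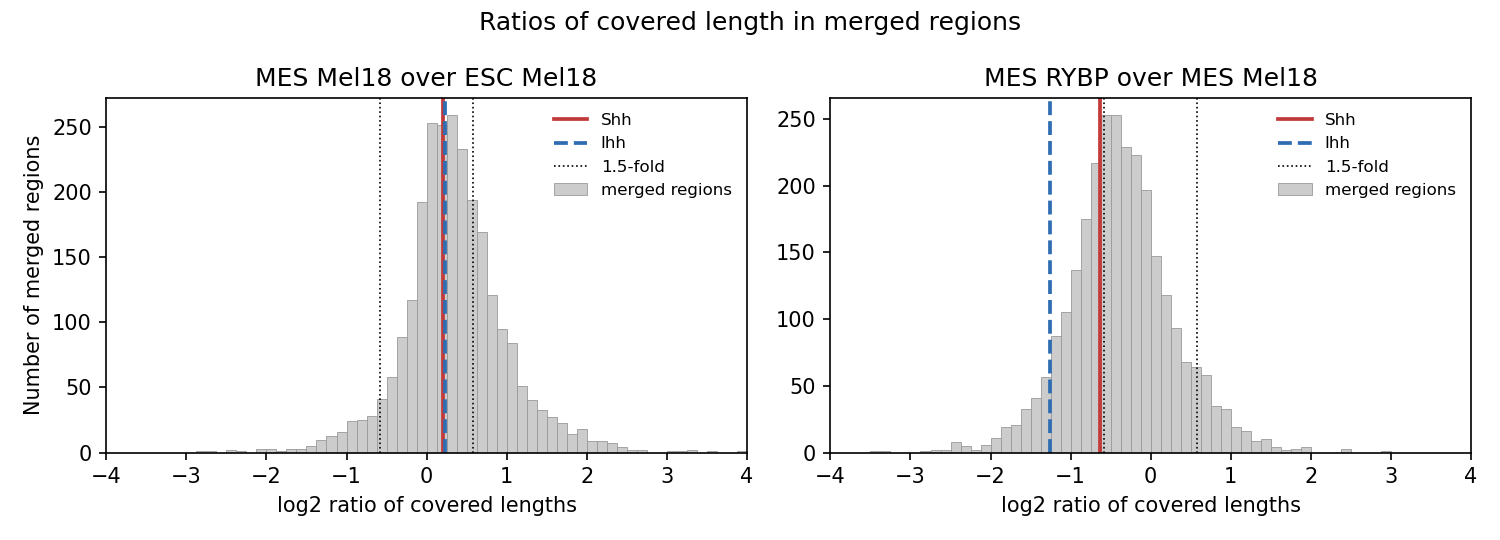
The grey bars count merged regions by the log2 ratio of covered lengths, for MES Mel18 over ESC Mel18 (left) and MES RYBP over MES Mel18 (right), with ratios beyond 4 log2 units placed in the outermost bins, solid and dashed lines for Shh and Ihh, and dotted lines at 1.5-fold. On the left both ligands stand near the middle of the regions, at ratios of 1.15 for Shh and 1.18 for Ihh, and on the right Ihh stands further down, at 0.419, than Shh, at 0.647.

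The second question was which other PRC1 subunits lay at these Mel18 sites in MES. Cbx2, the chromodomain subunit, formed the widest peak at each ligand gene. It had 1 peak of 15009 bp at Shh (chr5:28781875-28796883) and 1 peak of 7008 bp at Ihh (chr1:74994026-75001033). Cbx2 covered 100% of the MES Mel18 bases in both windows, against 84.7% over all MES Mel18 peaks and 97.5% in the highest-scoring 25% of them. Its cover was 1.24 times that of MES Mel18 at Shh and 1.13 times at Ihh, where the median of 2578 regions was 1.14. Neither passed the fold of 1.5, and 19.8% of the regions were called longer and 1.12% shorter. At Shh, Cbx2 was the sole list over 1842 bp, at the outer ends of the region.

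Cbx2 also reached beyond the ESC Mel18 interval, but not evenly at Ihh. At Shh it reached 2338 bp further on the low side and 2153 bp further on the high side. At Ihh the distances were 203 bp and 1523 bp. The longer reach of Cbx2 and MES Mel18 at Ihh was on the high-coordinate side, which is the upstream direction for this gene on the minus strand.

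Ring1b, the catalytic subunit, had peaks of 11919 and 684 bp at Shh (chr5:28782714-28794632 and chr5:28794641-28795324), parted by 8 bp. At Ihh it had 1 peak of 5913 bp (chr1:74993937-74999849). Ring1b covered 95.4% of the MES Mel18 bases at Shh and 91.6% at Ihh, against 79.4% over all MES Mel18 peaks and 89.9% in the highest-scoring 25%. Its cover was 1.04 times that of MES Mel18 at Shh and 0.952 times at Ihh, against a median of 0.889 over 3026 regions. Neither ligand passed the fold of 1.5, against 4.82% of the regions called longer and 15.5% called shorter. Ring1b and Mel18 therefore occupied nearly equal lengths at both ligand genes.

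RYBP, the variant PRC1 subunit, had the shortest cover at each gene. At Shh it had peaks of 3401, 3222 and 1228 bp (chr5:28784219-28787619, chr5:28789163-28792384 and chr5:28792579-28793806), with gaps of 1543 and 194 bp. At Ihh it had 1 peak of 2603 bp (chr1:74996354-74998956). RYBP at Shh ran through most of the Mel18 interval with breaks, whereas at Ihh it was a single peak inside that interval. Its first edge at Shh lay 6 bp inside that of ESC Mel18 and its last edge 924 bp inside. At Ihh the edges lay 2125 bp (low side) and 554 bp (high side) inside. Few peaks of the whole RYBP list, 11 of 7614, spanned at least 10 kb, against 171 of 4165 for MES Mel18. Each subunit was mapped with its own antibody. Whether antibody strength or read depth set the differences in covered length between subunits was not tested.

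RYBP peaks covered 64.4% of the MES Mel18 bases at Shh and 41.9% at Ihh, against 56.1% over all MES Mel18 peaks and 58.1% in the highest-scoring 25% of them. RYBP cover was 0.647 times that of MES Mel18 at Shh and 0.419 times at Ihh, and both passed the fold of 1.5 towards a shorter cover. Over 2773 regions, 36.7% were called shorter and 7.93% longer, so a shorter RYBP cover was a common pattern. Shh stood just inside the threshold, and its call was lost without the lower-scoring 50% of each list (0.732) and with lists of equal length (0.690). Under these settings 48.8% and 39.5% of the regions were called shorter, with median ratios of 0.673 and 0.743. The Ihh ratio stayed at 0.419 by construction, since neither setting could drop its high-scoring peaks. Of the 2773 regions of the full lists, 7.36% had a ratio lower than that of Ihh and 33.5% one lower than that of Shh.

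All of the RYBP bases at both genes were also under Cbx2, Ring1b and ESC Mel18 peaks. MES Mel18 covered 99.4% of the RYBP bases at Shh and 100% at Ihh. Over all RYBP peaks, 54.3% of bases were under Cbx2, 71.1% under Ring1b, 51.4% under MES Mel18 and 52.2% under ESC Mel18. In the highest-scoring 25% of RYBP peaks these shares were 79.1, 87.4, 74.9 and 73.0%, in the same order. These list-wide shares include RYBP peaks at sites without the other list, so they are no like-for-like background for nesting. The RYBP peaks at the ligand genes were nested, but for a few bases at Shh, in the intervals of the other subunits.

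Counted by base, 7807 bp of the Shh region (52.0%) and 2603 bp of the Ihh region (36.7%) were under peaks of all 5 lists. A further 2659 bp at Shh and 2679 bp at Ihh were under the 4 lists other than RYBP. The bases with the 4 others and without RYBP thus had nearly the same total length at the 2 genes, but in pieces placed differently. At Ihh they lay at both ends of the ESC Mel18 interval. At Shh they lay mainly in the gaps between RYBP peaks and at the high-side end. Their total was 25.4% of the bases under the 4 others at Shh and 50.7% at Ihh.

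**Figure D3:**
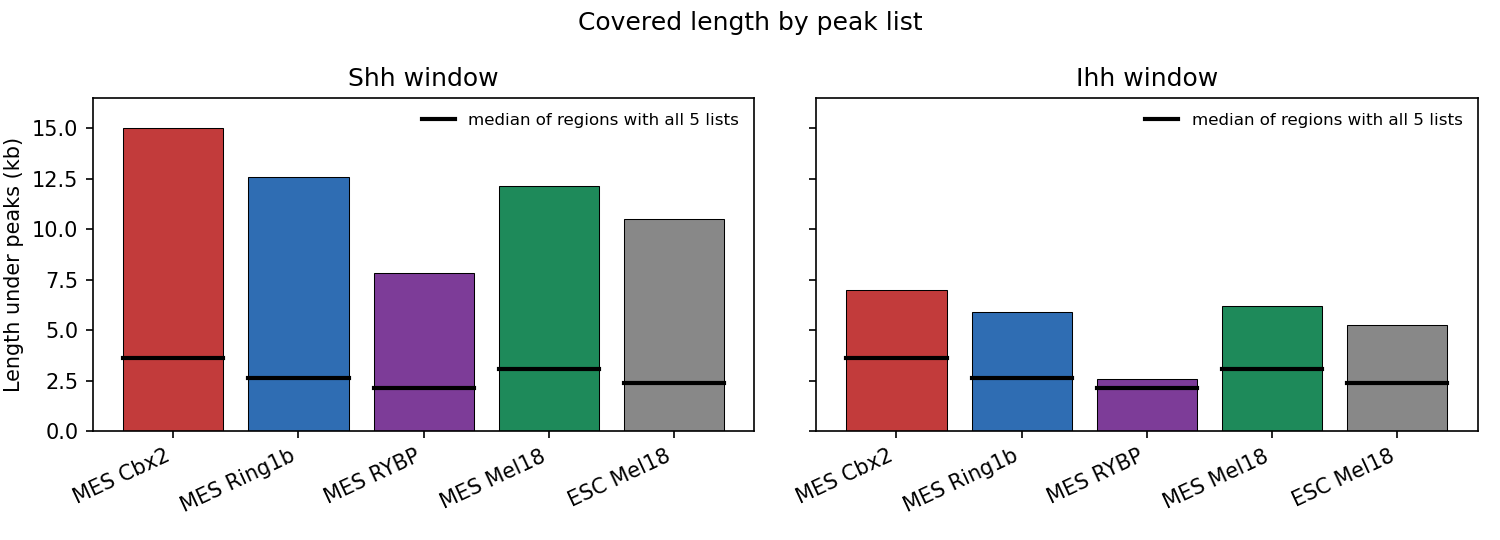
Bars give the length in kb under peaks of each list in the Shh window (left) and the Ihh window (right), 1 sample per list, and black lines the median of the same list over 1911 merged regions with all 5 lists. Each bar lies above its line, with Cbx2 the tallest and RYBP the shortest at both genes.

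The order of covered lengths was alike at the 2 genes apart from 1 pair. At Shh, Cbx2 peaks covered 15009 bp, Ring1b 12603 bp, MES Mel18 12129 bp, ESC Mel18 10518 bp and RYBP 7851 bp. At Ihh, Cbx2 peaks covered 7008 bp, MES Mel18 6210 bp, Ring1b 5913 bp, ESC Mel18 5282 bp and RYBP 2603 bp. Ring1b and MES Mel18 changed places, and the ratio of their lengths was near 1 at both genes. Cbx2 had the longest and RYBP the shortest cover in 2 of 2 ligand regions and in 34.9% of the 1911 regions with all 5 lists. No replicate gives an error for these lengths, so how far neighbours in the order differ beyond their spread is unknown.

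Shh was covered over a greater length than Ihh in each list. The ratio of Shh to Ihh was 2.14 for Cbx2, 2.13 for Ring1b, 1.95 for MES Mel18 and 1.99 for ESC Mel18. It was 3.02 for RYBP. The relation of the ligands was thus nearly the same in 4 lists and larger in that of RYBP.

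Each peak was also placed within its own list by width and by the authors' score, whose scale was not stated and which was not compared between lists. Values piled up at 3100 in every list but that of RYBP, as at a ceiling, so peaks at that value share a rank and cannot be ordered against those just above it. The Cbx2 peak of Shh had a score of 3100, a value it shared with 324 other peaks, and 8 peaks scored higher. It was wider than 97.2% of Cbx2 peaks. The Cbx2 peak of Ihh scored higher than 90.2% and was wider than 90.1% of its list.

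The wide Ring1b peak of Shh also stood at 3100, with 12 peaks above it, and was wider than 98.7% of Ring1b peaks. The Ring1b peak of Ihh scored higher than 96.2% and was wider than 96.5% of that list. Among RYBP peaks, those of 3401 and 3222 bp at Shh scored higher than 98.6% and 96.5% of the list, and the third than 64.9%. The RYBP peak of Ihh scored higher than 91.7% and was wider than 87.8%. The highest-scoring RYBP peak of the ligand genes thus lay at Shh.

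For Mel18 the Ihh peak had the higher score in ESCs, and in MES the pile-up of scores at 3100 leaves the order of the ligands unsettled. In MES, 2 of 4165 Mel18 peaks scored higher than the Ihh peak, and 14 scored higher than the wide Shh peak, which was tied with 359 others at 3100. In ESCs, 14 of 6593 Mel18 peaks scored higher than the Ihh peak, which was tied with 288 others, and 459 scored higher than the Shh peak. By width the Shh peak came first, at rank 155 in MES and 44 in ESCs, against ranks 331 and 237 for Ihh in the same lists. The scores were 3100 for the wide Shh peak and 3163 for the Ihh peak in MES, and 2219 for Shh and 3100 for Ihh in ESCs. In both states the Ihh Mel18 peak was thus narrower than the wide Shh peak. In ESCs it had the higher score, whereas the MES score of Shh stood at the pile-up and does not rank it below Ihh.

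The narrow peaks beside the wide ones at Shh were low in their lists. The flanking MES Mel18 peaks scored higher than 38.3% and 5.55% of the list, and the narrow Ring1b peak higher than 27.3%.

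**Figure D4:**
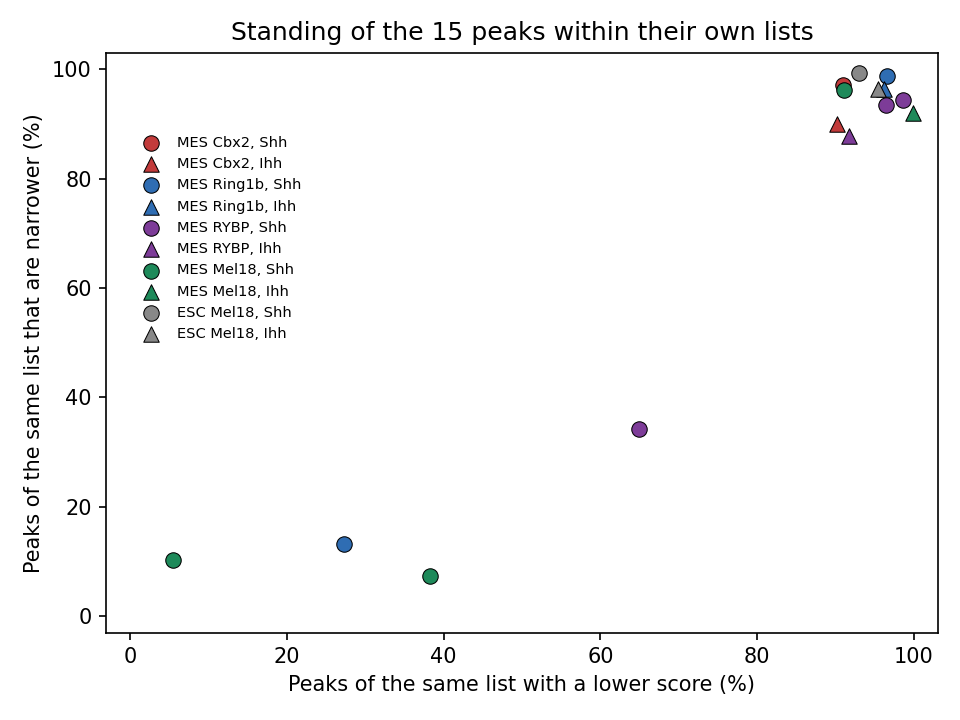
Each point is 1 of the 15 peaks, with the share of its own list that scores lower (horizontal, %) and the share that is narrower (vertical, %), circles for Shh and triangles for Ihh, and 1 colour per list. All 5 Ihh peaks and 6 of the 10 Shh peaks stand at 87.8% or higher on both axes, and the narrow Shh peaks of Mel18, Ring1b and RYBP stand lower.

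The surroundings of the genes differed. Within 100 kb on either side of the Shh region there was no other peak in any of the 5 lists. On the low-coordinate side the nearest peaks lay 138 kb away for Cbx2, 243 kb for Ring1b, 138 kb for RYBP, 243 kb for MES Mel18 and 284 kb for ESC Mel18. On the high-coordinate side they lay 996 kb away for Cbx2, 725 kb for Ring1b, 725 kb for RYBP, 996 kb for MES Mel18 and 997 kb for ESC Mel18. The median gap between neighbouring peaks was 255, 92.1, 116, 187 and 107 kb in these lists, in the same order. In RefSeq, the nearest protein-coding genes to Shh are Rbm33 on 1 side and Rnf32 on the other, with Lmbr1, which holds a limb enhancer of Shh in an intron, after Rnf32.

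The Ihh region had neighbours within 100 kb in each list, 6 peaks of Cbx2, 4 of Ring1b, 5 of RYBP, 6 of MES Mel18 and 5 of ESC Mel18. The nearest lay on the low-coordinate side. Ring1b, RYBP and ESC Mel18 had peaks 45.5, 45.4 and 45.2 kb away, with widths of 2802, 2275 and 2406 bp. MES Mel18 and Cbx2 had narrow peaks closer in, of 639 bp at 31.2 kb and of 1170 bp at 19.1 kb, which scored higher than 2.33% and 17.2% of their lists. Within 100 kb, Shh thus stood alone among the peaks of both states and Ihh did not. How many of all regions stand alone in this way was not counted, so this is not read as a trait of Shh. The median gap between peaks was above 100 kb in every list but that of Ring1b. It was taken within single lists and cannot give that count.

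Other regions had nearly the same set of covered lengths. Likeness was measured among the 1911 regions with all 5 lists by the Euclidean distance of log2 covered length over those lists. The regions most like Shh lay on chromosome 13 (chr13:31891752-31906757, distance 0.219), chromosome 13 (chr13:56348780-56364308, 0.226) and chromosome 3 (chr3:30402662-30416415, 0.233). Those most like Ihh lay on chromosome 10 (chr10:102488662-102495313, 0.268), chromosome 14 (chr14:112073701-112081828, 0.284) and chromosome 13 (chr13:113775683-113782173, 0.307). The ligand regions were 2.62 apart on this measure, with 318 regions nearer to Shh than Ihh was and 936 nearer to Ihh than Shh was. The median distance of the regions was 4.79 from Shh and 2.65 from Ihh.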

How the data were processed

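The 5 peak lists were used as deposited. Each gave an interval, a peak name with the tag of the MACS caller and 1 score per peak, per the file headers and peak names. The build was mm9, and the submitters' processing notes name Bowtie and TopHat. The sources used here do not give the caller's settings, the control library, any pooling or the read depth. The deposited score of the authors was used to rank peaks within 1 list. Starts were counted from 1.

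Overlapping peaks of all lists (at least 1 bp) were joined into merged regions, covered lengths were summed per list, and a ratio of at least 1.5 either way was called. With 1 sample per list no test was made, and most values stand beside the same quantity over all peaks or regions. No such quantity is given for values such as edge distances, Shh to Ihh ratios, bases by number of lists and neighbour counts. The members and lists were chosen with earlier results of these data known. Every peak in a window is given, and the 3 nearest regions by covered length are given for each gene. Other hedgehog pathway genes were not placed, as no mm9 annotation was used here. The alternatives were leaving out the lower-scoring 50% of each list, lists of equal length, peaks within 1 kb joined, windows widened by 20 kb and autosomes. Python 3.11.15, numpy 2.4.6, pandas 2.3.3, matplotlib 3.10.9 and bedtools 2.31.1 were used. The interval code was tested on simulated data and against bedtools.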

Additional observations from a re-analysis of the deposited data

How the results depend on the processing

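No paired analysis was possible because each list came from 1 sample. Of 142 values of the ligand genes recomputed under the alternatives, 122 stayed within their limits and 20 moved. The limits were 1.5 times for counts and lengths, and 3 digits for ratios and shares. For ranks the limit was an exact binomial 95% interval over the peaks of the list. That interval treats peaks as independent draws and measures no spread between samples. A value could turn round only where a ratio had been called, as for RYBP over MES Mel18, and 0 did. Many values could not move, so these counts do not measure stability. Cuts by score could drop no Ihh peak, as each stood high in its list. Lists of equal length left Cbx2, the shortest list, unchanged. Windows widened by 20 kb could add no peak at Shh, which had no other within 100 kb. Without the lower-scoring 50% of each list, the Shh ratio of covered length was 1.02 for MES Mel18 over ESC Mel18, and Cbx2 had 1.40, Ring1b 1.11 and RYBP 0.732 times the MES Mel18 cover. With lists of equal length they were 1.08, 1.32, 1.05 and 0.690, in the same order. The medians over all regions with peaks of both lists were 1.27, 1.12, 0.881 and 0.673 under the first setting. They were 1.24, 1.14, 0.881 and 0.743 under the second. Under these settings, Ring1b covered 96.7 and 96.9% and RYBP 72.8 and 68.6% of the Shh MES Mel18 bases. By construction these settings drop low-scoring peaks: at Shh, 1 Ring1b peak was left under both, and 1 MES Mel18 peak under the first. With peaks within 1 kb joined, Ring1b and MES Mel18 had 1 peak each at Shh, and the ESC Mel18 peak of Shh scored higher than 92.4% of its list. With windows widened by 20 kb, Cbx2 and MES Mel18 had 2 peaks each at Ihh. Among regions with at least 5 kb of ESC Mel18 cover, an alternative chosen after seeing the data, 25.2% were called longer in MES and 3.23% shorter. The median ratio of these 310 regions was 1.28. A ratio below that of Shh was seen in 29.0% of them, and below that of Ihh in 32.9%. Depth was unknown, so neither ligand's lengths could be corrected for it.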
